A study of Mus musculus with 11 samples.

Results

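Cell cycle genes were examined in GFP+ mesenchymal cells of the mouse liver. The 51 genes were taken by symbol from the 27998 genes of the count tables and comprised 13 genes of DNA replication (S phase genes), 31 genes of chromosome segregation and cell division (mitotic genes), the E cyclins Ccne1 and Ccne2, the D cyclins Ccnd1, Ccnd2 and Ccnd3, and the inhibitors Cdkn1a and Cdkn1b. All 51 were found. The mitotic genes include Mki67, Cdca8, Cdc20, Ccna2 and Ccnb1, which the study used on these same samples as a proliferation signature, so their direction is not independent evidence. The other members were likewise chosen with earlier results of these data known.

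The cells came from male C57BL/6 mice of 10 to 16 weeks that carried the Pdgfrb-BAC-eGFP reporter, a transgene that labels mesenchymal cells through Pdgfrb regulatory sequence. Livers were uninjured or had been injured with carbon tetrachloride (CCl4), a hepatotoxin given intraperitoneally in olive oil, either as a single injection with harvest after 72 h or 2 times weekly for 6 weeks with harvest 48 h after the last dose. The HSC isolation perfused the liver with pronase and collagenase D and enriched hepatic stellate cells, the vitamin A-storing pericytes of the sinusoid, on a density gradient. The PF isolation digested minced liver and yielded mainly portal fibroblasts and vascular smooth muscle cells. GFP+ cells negative for CD45 and CD102 were sorted and run on the droplet-based 10x platform, giving uninjured, 72 h and 6 weeks libraries in the HSC isolation and uninjured and 6 weeks libraries in the PF isolation. Each condition was 1 library of 3 pooled mice, so no difference between conditions had a replicate check. Intervals are 95% intervals that cover counting error only, and no p-value is given. Those of levels and ratios treat each transcript count as independent.

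A dividing cell passes through G1, in which D cyclins relay growth signals, into S phase, in which E cyclins start replication and the MCM helicase opens the DNA, and then through G2 into mitosis, where B cyclins with Cdk1 drive chromosome segregation. Cdkn1a (p21) and Cdkn1b (p27) inhibit the cyclin-dependent kinases. Transcription follows the phases: E2F factors act on replication genes, and the DREAM and MuvB complexes act on mitotic genes through a short element termed CHR. Stellate cells of uninjured liver are largely quiescent and proliferate after injury.

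The libraries held 5454 to 7310 cells and 25965670 to 86664085 unique molecular identifiers (UMIs, each 1 captured transcript), with medians of 4300 to 11344 UMIs per cell. Levels are UMIs of a gene per 1000000 UMIs of the library (CPM). Each UMI is read at the 3' end of a transcript, so no length correction was made. Because depth differed, shares of cells were taken after thinning every cell to 2000 UMIs, which left out 114 cells of the uninjured HSC library, 344 of the uninjured PF library and 375 of the 6 weeks PF library. In all, 512 of 30499 different barcodes occurred in more than 1 library. The 5 stellate cell markers summed to 24588 CPM in the uninjured HSC library and to 4298 CPM at 72 h, so the HSC libraries differed in far more than the cell cycle genes.

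Promoter windows are shown first because S phase and mitotic genes differed in the letters they hold. Windows of 300 bases, from 250 before to 50 after the start of transcription, were taken from RefSeq on GRCm38.p6 for the 40 of 51 genes that matched. Both strands were searched for TTTGAA (CHR), for CCAAT (the NF-Y box) and for TTTGGCGC, TTTCGCGC, TTTCCCGC and TTTGCCGC (E2F). TTTGAA was in 19 of 25 windows of mitotic genes and 1 of 15 windows of S phase genes, against 17.9% of all 32851 windows. An E2F match was in 5 of 15 S phase windows and 1 of 25 mitotic windows, against 2.26% of all windows. CCAAT was in 22 of 25 mitotic and 10 of 15 S phase windows, against 37.4% of all windows. A match describes letters and is not a bound site. The windows below are written 5' to 3' along the gene, with CHR, CCAAT and E2F matches in capitals on either strand. Ccnb2, Cdc20 and Cenpa were chosen as mitotic genes with both CHR and CCAAT, Knstrn as the mitotic gene of the largest 72 h ratio, and Mcm5 and Mcm6 as S phase genes with E2F matches:
Ccnb2 promoter, chr9:70421505-70421804, minus strand: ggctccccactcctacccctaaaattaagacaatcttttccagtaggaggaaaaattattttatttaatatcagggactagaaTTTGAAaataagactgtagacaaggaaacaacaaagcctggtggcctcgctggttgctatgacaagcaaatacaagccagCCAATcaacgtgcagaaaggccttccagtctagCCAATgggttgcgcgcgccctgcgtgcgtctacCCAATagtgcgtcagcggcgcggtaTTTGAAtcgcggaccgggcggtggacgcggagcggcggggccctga
Cdc20 promoter, chr4:118437294-118437593, minus strand: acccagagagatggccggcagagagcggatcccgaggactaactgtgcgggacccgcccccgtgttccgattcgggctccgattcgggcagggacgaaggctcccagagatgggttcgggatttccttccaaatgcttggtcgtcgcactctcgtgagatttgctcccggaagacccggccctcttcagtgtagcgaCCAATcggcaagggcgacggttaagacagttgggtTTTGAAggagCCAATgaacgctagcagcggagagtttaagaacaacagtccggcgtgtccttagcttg
Cenpa promoter, chr5:30666636-30666935, plus strand: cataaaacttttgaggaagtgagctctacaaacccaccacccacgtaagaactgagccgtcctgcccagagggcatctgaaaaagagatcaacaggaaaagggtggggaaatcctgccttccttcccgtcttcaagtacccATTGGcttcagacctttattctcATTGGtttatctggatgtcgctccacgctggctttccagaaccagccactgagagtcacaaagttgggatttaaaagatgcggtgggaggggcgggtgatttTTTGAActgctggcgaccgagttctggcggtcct
Knstrn promoter, chr2:118813753-118814052, plus strand: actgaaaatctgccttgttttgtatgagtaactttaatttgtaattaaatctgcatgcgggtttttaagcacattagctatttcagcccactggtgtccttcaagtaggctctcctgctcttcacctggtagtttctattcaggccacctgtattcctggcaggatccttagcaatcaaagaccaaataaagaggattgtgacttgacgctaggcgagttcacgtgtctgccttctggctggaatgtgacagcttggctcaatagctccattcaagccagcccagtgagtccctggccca
Mcm5 promoter, chr8:75109259-75109558, plus strand: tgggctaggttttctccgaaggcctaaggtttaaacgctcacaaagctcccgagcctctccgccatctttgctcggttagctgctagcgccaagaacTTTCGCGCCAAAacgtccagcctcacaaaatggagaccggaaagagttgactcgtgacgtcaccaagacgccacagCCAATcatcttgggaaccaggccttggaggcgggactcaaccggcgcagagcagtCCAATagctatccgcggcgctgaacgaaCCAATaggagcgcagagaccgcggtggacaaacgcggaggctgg
Mcm6 promoter, chr1:128359656-128359955, minus strand: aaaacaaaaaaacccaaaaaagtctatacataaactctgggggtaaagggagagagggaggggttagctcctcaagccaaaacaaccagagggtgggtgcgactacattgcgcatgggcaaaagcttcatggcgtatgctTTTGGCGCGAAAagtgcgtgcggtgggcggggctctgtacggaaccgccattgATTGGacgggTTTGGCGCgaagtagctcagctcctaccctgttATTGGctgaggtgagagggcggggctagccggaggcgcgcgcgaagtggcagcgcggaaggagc
The Knstrn window held none of the searched letters. In Mcm5 and Mcm6, E2F matches on opposite strands shared 4 bases and form a single run of capitals.

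At 72 h after CCl4, every mitotic gene was higher than in the uninjured HSC library, while the S phase genes were divided and Ccnd1 and Ccnd2 were lower. All 31 mitotic genes were at least 2-fold higher, against 15.5% of all 14196 genes tested (those with at least 20 UMIs over both libraries), with ratios from 3.59 for Mki67 to 45.4 for Knstrn and a median of 15.3. Their summed level was 160 CPM uninjured and 2397 CPM at 72 h, a ratio of 15 (14.6 to 15.3). Of 13 S phase genes, 5 were at least 2-fold higher, against the same 15.5%, and 0 were at least 2-fold lower, against 9.96%. Pcna, Mcm2, Mcm3 and Mcm4 had ratios and intervals below 1. The 13 S phase genes summed to 152 and 224 CPM, a ratio of 1.48 (1.44 to 1.52). Over all genes tested the median ratio was 0.927.

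**Figure D1:**
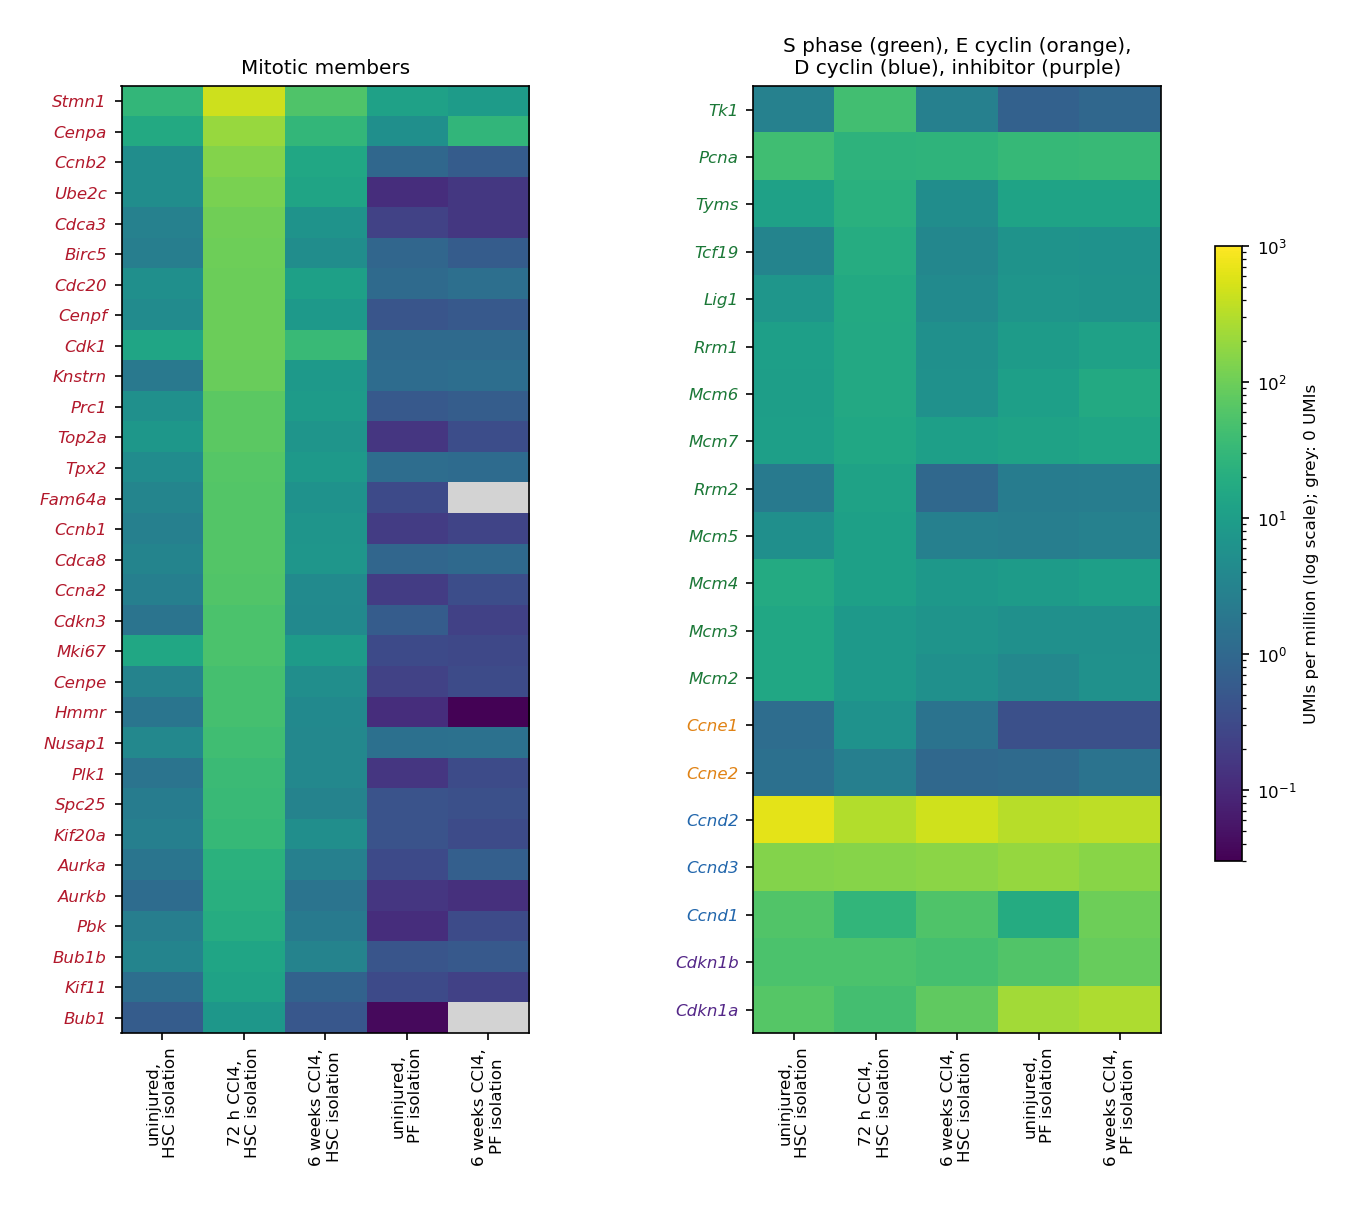
Level of each of the 51 genes (rows) in each of the 5 libraries (columns) in CPM on a log colour scale, with grey for 0 UMIs. The mitotic genes are brightest in the 72 h library and, other than Cenpa, darkest in the PF libraries. Cenpa is brighter in the 6 weeks PF library than in the uninjured HSC library. Ccnd2 is the highest gene of the right panel in every library.

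Stmn1, which encodes the microtubule-destabilising protein stathmin, was the most abundant mitotic gene in each HSC library, at 30.1 CPM uninjured, 459 at 72 h and 56.4 at 6 weeks, and was at 11.4 and 9.07 CPM in the uninjured and 6 weeks PF libraries. Cenpa, the histone variant of centromeres, stood at 16.8, 198 and 30.1 CPM in the HSC libraries and at 5.28 and 28.3 CPM in the PF libraries. Ccnb2, a B cyclin, was at 4.94, 142 and 15 CPM and at 0.963 and 0.611 CPM in the same order. All 3 were highest at 72 h, and of them Cenpa alone was higher after injury in the PF isolation. Ube2c, an enzyme of the anaphase-promoting complex pathway, was at 5.02, 121 and 13.1 CPM in the HSC libraries and at 0.116 and 0.161 CPM in the PF libraries. Cdca3, a mitotic entry factor, was at 2.91, 106 and 6.22 CPM and at 0.231 and 0.161 CPM. Both were near the limit of counting in the PF libraries, where Ube2c rested on 3 and 5 UMIs.

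The least abundant mitotic genes moved in the same direction at 72 h. Bub1, a kinase of the spindle checkpoint, was at 0.625 CPM uninjured and 7.44 CPM at 72 h, a ratio of 11.9 (8.21 to 17.9). Kif11, the kinesin that separates spindle poles, was at 1.27 and 12 CPM, a ratio of 9.44 (7.26 to 12.5). Bub1b, another checkpoint protein, was at 3.23 and 13.8 CPM, a ratio of 4.26 (3.6 to 5.09). Mki67, the proliferation antigen Ki-67, had the smallest ratio, at 14.6 CPM uninjured, where only Stmn1 and Cenpa were higher among mitotic genes, and 52.3 CPM at 72 h. Knstrn, a spindle protein, went from 2.05 to 92.9 CPM, a ratio of 45.4 (37.1 to 56.1).

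Among the S phase genes the 5 that were at least 2-fold higher at 72 h were Tk1 and Rrm2, which supply deoxynucleotides, the transcription factor Tcf19, the ligase Lig1 and Mcm5. Tk1 was at 2.95, 42.9 and 2.78 CPM in the uninjured, 72 h and 6 weeks HSC libraries, with a ratio of 14.5 (12.3 to 17.4) at 72 h. Rrm2 was at 2.07, 11.9 and 1.01 CPM, with a ratio of 5.77 (4.68 to 7.19). Tcf19 was at 3.32, 19 and 3.68 CPM, with a ratio of 5.73 (4.86 to 6.81). All 3 were low in the uninjured library. Pcna, the sliding clamp of the replication fork, went the other way, at 40.4, 25 and 26.4 CPM, with a 72 h ratio of 0.617 (0.58 to 0.657). Mcm2, Mcm3 and Mcm4, subunits of the same helicase as Mcm5, had ratios of 0.557, 0.569 and 0.627. The other helicase subunits had ratios above 1, with Mcm5 at 2.1, Mcm6 at 1.58 and Mcm7 at 1.4. Tyms, thymidylate synthase, was at 11.6, 22.6 and 4.9 CPM.

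**Figure D2:**
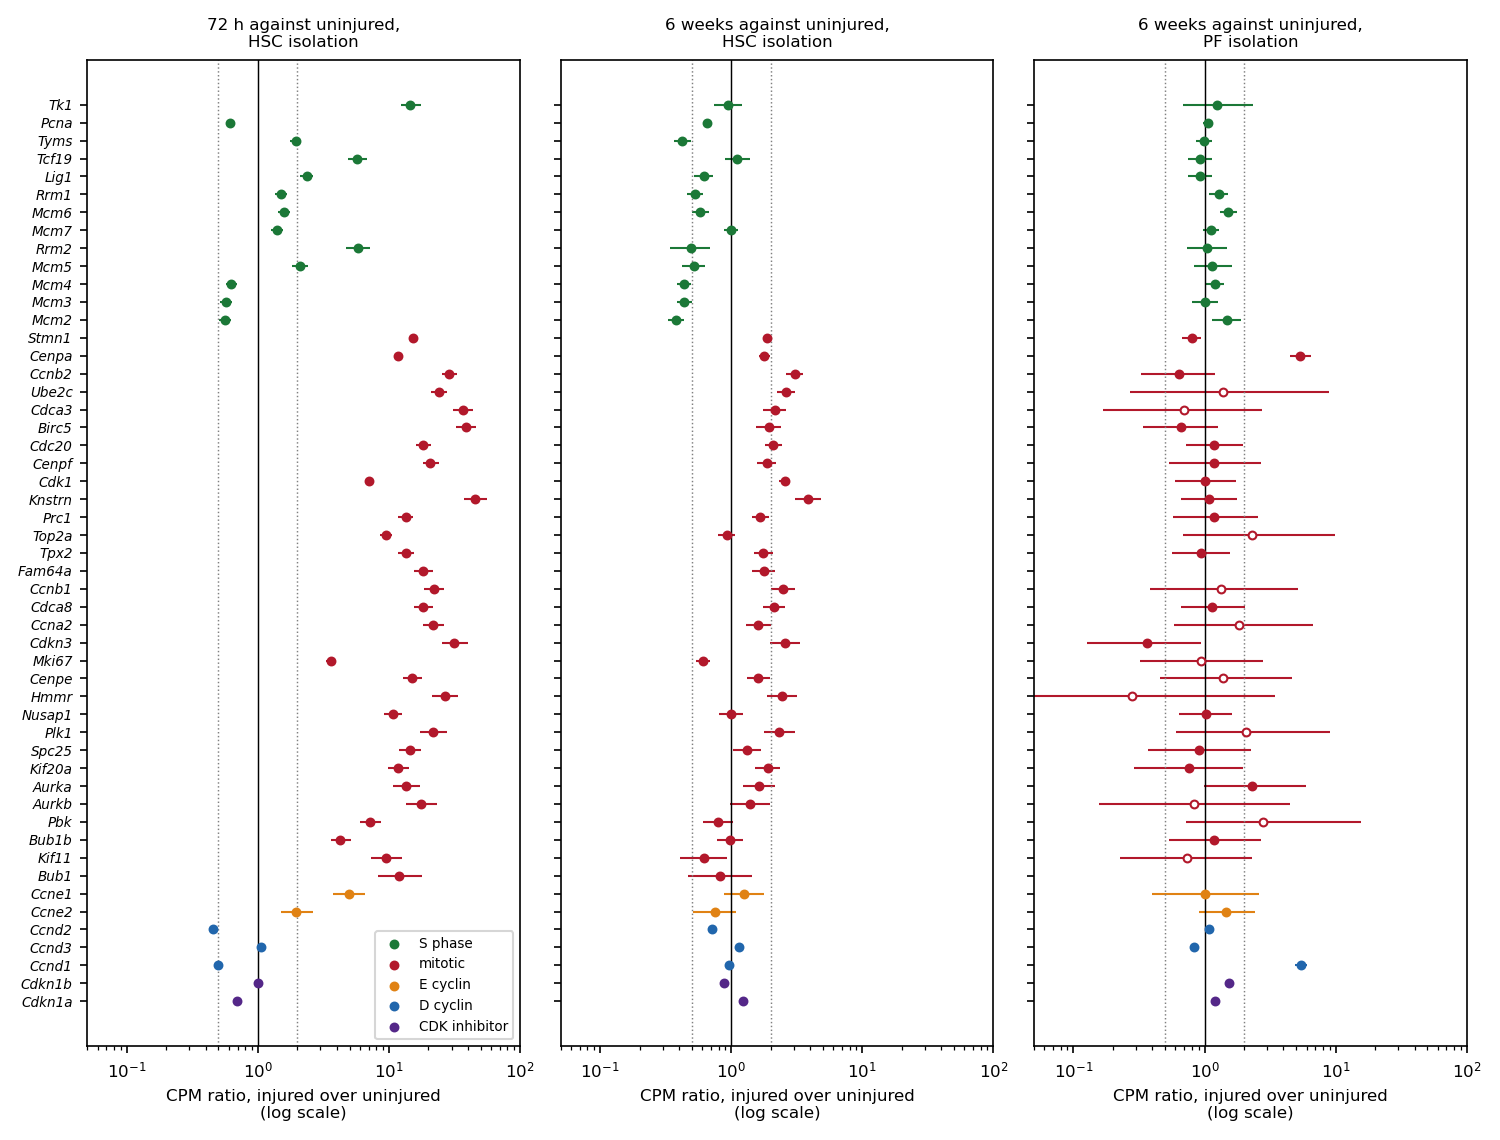
Ratio of CPM between injured and uninjured library for each gene, 1 panel per comparison, on a log axis, with 95% counting intervals. Open points had under 20 UMIs over both libraries, genes at 0 UMIs in a library are not drawn, and dotted lines mark ratios of 0.5 and 2. Mitotic genes lie right of 2 at 72 h, S phase genes lie on both sides of 1, and in the PF isolation Cenpa and Ccnd1 stand apart.

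At 72 h both E cyclins were higher, Ccnd1 and Ccnd2 were lower, and Ccnd3 had a ratio of 1.05 (1.02 to 1.08). Ccne1 was at 1.25 CPM uninjured, 6.18 at 72 h and 1.57 at 6 weeks, with a 72 h ratio of 4.95 (3.77 to 6.6). Ccne2 was at 1.38, 2.72 and 1.03 CPM, with a 72 h ratio of 1.97 (1.49 to 2.64). Ccnd2, the most abundant of the 51 genes in the uninjured HSC library, was at 657, 297 and 468 CPM, with a 72 h ratio of 0.452 (0.445 to 0.46). Ccnd1 was at 58.2, 28.7 and 56 CPM, with a 72 h ratio of 0.493 (0.467 to 0.521), against 9.96% of all genes that were at least 2-fold lower. Ccnd3 was at 145, 152 and 165 CPM. When libraries were scaled to the median gene in place of total UMIs, which shifted the 72 h comparison by -0.231 on the log2 scale, Ccnd1 and Ccnd2 stayed lower, at 0.579 and 0.531, but no longer passed 2-fold. Cdkn1a was at 63.9, 44.3 and 79.3 CPM and Cdkn1b at 52.3, 53 and 46.3 CPM.

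Further cell cycle genes from fixed lists were counted in each comparison. The lists were chosen with earlier results of these data known, so these counts are not independent evidence. Of further S phase genes, 19 of 34 tested were at least 2-fold higher at 72 h, against 15.5% of all genes, and 1 was lower, against 9.96%. Of further mitotic genes, 43 of 55 were higher and 1 was lower. At 6 weeks in the HSC isolation 7 of 54 further mitotic genes were higher, with a median ratio of 1.18, and 0 of 32 further S phase genes, with a median of 0.706, against 7.24% of all genes, and 1 of each list was lower. In the PF isolation 0 of 36 and 0 of 31 were higher, against 4.66%, and 0 and 1 were lower.

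Cells with several mitotic genes were counted in each library. At 2000 UMIs, 29 of 6736 uninjured HSC cells (0.431%, 0.289 to 0.618) held at least 3 mitotic genes, with Stmn1 left out of the count. At 72 h the number was 1301 of 7310 cells (17.8%, 16.9 to 18.7), and at 6 weeks it was 70 of 5454 cells (1.28%, 1 to 1.62). The PF libraries held 3 of 5393 (0.0556%) and 1 of 5273 (0.019%) such cells. Cells with at least 3 S phase genes made up 0.431%, 2.94% and 0.22% of the HSC libraries and 0.0927% and 0.36% of the PF libraries. The mitotic count drew on 30 genes and the S phase count on 13. At 72 h the median level was 60.8 CPM for the mitotic genes, Stmn1 included, and 16 CPM for the S phase genes. The mitotic and S phase shares thus do not give the relative number of cells in each phase. Without thinning, the mitotic share at 72 h was 40.9%. No cell type that should lack these genes was present to measure free RNA. Of the 1301 cells, 112 (8.61%) were called doublets, against 5.24% of the other cells of that library, and the part of doublets in the share was not tested beyond leaving them out.

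**Figure D3:**
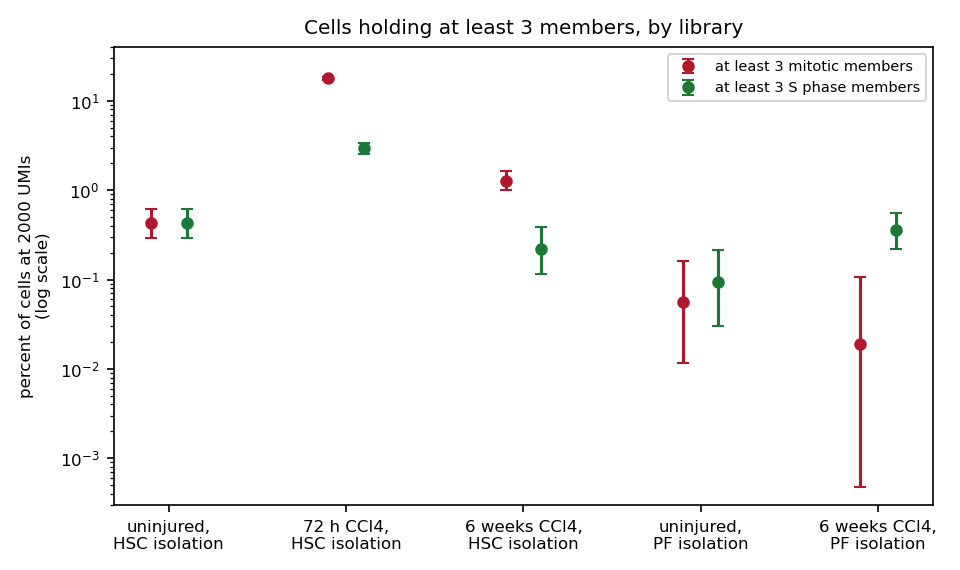
Percent of cells at 2000 UMIs with at least 3 mitotic genes (red) or at least 3 S phase genes (green) in each library, on a log axis, with 95% exact binomial intervals. The 72 h library has the highest value for both, at 17.8% and 2.94%. The mitotic count draws on 30 genes and the S phase count on 13, so red and green are not on a like footing.

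At 72 h, 74.7% (Cdk1) to 96.8% (Nusap1) of the UMIs of a mitotic gene lay in cells with at least 3 other mitotic genes, with a median of 93.7%. For S phase genes the range was 35.2% to 82.9%, with a median of 51.1%. In the uninjured and 6 weeks HSC libraries the median for mitotic genes was 79.2% and 83%. Only 29 and 70 cells there held at least 3 mitotic genes at 2000 UMIs. Most uninjured mitotic levels thus rest largely on few cells, which the intervals of the ratios do not cover. The exceptions were Bub1b (22%), Mki67 (22.4%), Cenpa (29.2%) and Cdk1 (41.5%), whose uninjured UMIs lay mostly in the other cells. In the uninjured and 6 weeks PF libraries the median for mitotic genes was 17.2% and 15.8%, with genes from 0% to 100% in each. Only 3 and 1 cells there held at least 3 mitotic genes. At 2000 UMIs 78% and 95.3% of the mitotic UMIs of these libraries, other than those of Stmn1, lay in cells with 1 mitotic gene. In cells with fewer than 3 mitotic genes, the summed S phase level was 140 CPM uninjured and 125 CPM at 72 h, a ratio of 0.889 (0.861 to 0.919). In those cells 27 of 31 mitotic genes were still at least 2-fold higher, against 14.3% of all genes, and the mitotic sum was 59.7 and 370 CPM. The cells were chosen for holding few of these genes, so this count is a description. They were chosen at 2000 UMIs, while levels were taken from all their UMIs. At full depth 2992 cells at 72 h and 56 uninjured cells held at least 3 mitotic genes, against 1301 and 29 at 2000 UMIs. Some of the 72 h cells compared here thus held at least 3 mitotic genes at full depth. Of the S phase genes there, 3 were at least 2-fold higher, namely Tk1, Rrm2 and Tcf19, and 2 lower, Mcm3 and Mcm2, against 10.4% of all genes that were lower. In the cells with fewer than 3 mitotic genes, Mki67 was lower at 72 h, at 11.4 and 7.1 CPM, a ratio of 0.624 (0.55 to 0.708). At 2000 UMIs, Mki67 was also found in cells with no other mitotic gene. The share was 2.32% in the uninjured HSC library, 1.4% at 72 h, 1.03% at 6 weeks and 0.0575% and 0.0411% in the PF libraries.

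Sorting the 72 h cells by both counts gave 5942 cells with neither, 67 with S phase genes only, 148 with both and 1153 with mitotic genes only. The classes are ranges of a count and not cell types, and their sizes do not give the number of cells in each phase. Cells with S phase genes were deeper, with medians of 17948 and 18161.5 UMIs against 12406 in mitotic only cells. The E cyclins, which took no part in the classes, were highest in the S phase classes. Ccne1 was at 4.46 CPM in cells with neither, 31.3 with S phase only, 45.3 with both and 5.35 with mitotic only. Ccne2 was at 1.21, 30.3, 35.3 and 1.92 CPM in the same order. By CPM Ccnd2 was lowest where mitotic genes were present, at 341, 283, 145 and 146 CPM. At 2000 UMIs Ccnd2 was found in 45.4%, 26.9% (16.8 to 39.1), 29.7% (22.5 to 37.8) and 22.8% of cells. On that measure the S phase only class was not above the class with both. Ccnd1 was at 29.6, 58.8, 30.7 and 23 CPM, where the second value rests on 62 UMIs. At 2000 UMIs it was found in 5.45%, 5.97% (1.65 to 14.6), 8.78% (4.76 to 14.6) and 3.64% of cells, so the order of the classes differed between the measures. Ccnd3 was at 157, 209, 163 and 127 CPM. Cdkn1a was at 33.2, 75.8, 119 and 74.6 CPM, lowest in the cells with neither. At 2000 UMIs Cdkn1a was found in 4.49%, 8.96% (3.36 to 18.5), 17.6% (11.8 to 24.7) and 9.89% of cells. The interval of the S phase only class includes the value of the cells with neither. The other inhibitor differed, with Cdkn1b at 50.8, 36, 44.9 and 63.9 CPM. At 2000 UMIs Cdkn1b was found in 11.8%, 1.49% (0.0378 to 8.04), 9.46% and 14.2% of cells.

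The members were then ordered by their level in mitotic only cells over cells with both, each gene being left out of the count that defined its classes. All 13 S phase genes had ratios of 0.181 (Lig1) to 0.455 (Rrm1). These classes differ in whether at least 3 S phase genes were held, so values below 1 follow largely from the classing and are not a separate result. The mitotic genes spread across 1. Ccnb1 (2.32, 2.07 to 2.6), Cenpa (2.29) and Cdkn3 (1.91), a phosphatase that acts on Cdk1, were highest. Pbk (0.39), Aurkb (0.426), Top2a (0.486) and Spc25 (0.517) were lowest, with Aurkb encoding the kinase of the chromosomal passenger complex and Top2a the topoisomerase that untangles DNA.

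**Figure D4:**
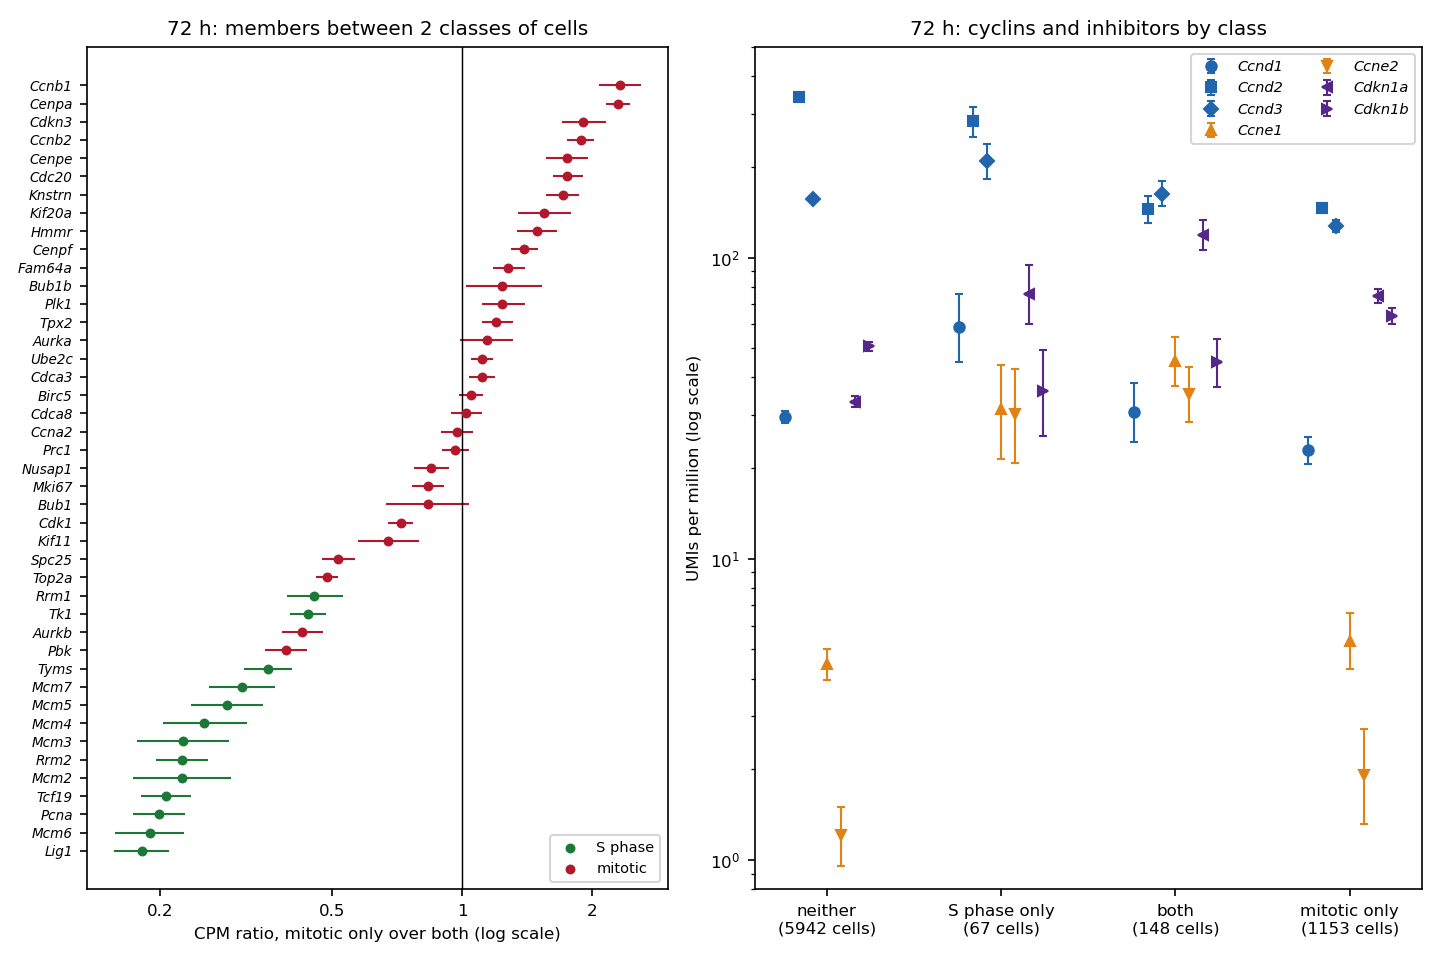
Left, ratio of CPM in 72 h cells with mitotic genes only over cells with both mitotic and S phase genes, per gene, on a log axis. S phase genes, whose count separates these classes, all lie left of 1, and mitotic genes lie on both sides. Right, level of cyclins and inhibitors in the 4 classes of 72 h cells on a log axis, where Ccne1 and Ccne2 peak in the 2 classes with S phase genes. Bars are 95% counting intervals.

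Likeness to the mitotic group at 72 h was the ratio of CPM in the 1301 cells over 4094 other cells. Those 4094 cells held no mitotic gene at 2000 UMIs, while at full depth 1261 cells of that library held none. The most like were Casc5 (124), Aspm (116), Kif4 (109), Kif23 (104), Cep55 (104), Depdc1a (103), Dlgap5 (97.8), Kifc1 (97.1), Hist1h2ap (94) and Sgol1 (90.4). The likeness was taken over the cells of 1 library.

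At 6 weeks in the HSC isolation, the summed mitotic level was higher and the summed S phase level lower than in the uninjured library, the same library that served the 72 h comparison. Of 31 mitotic genes, 11 were at least 2-fold higher, against 7.24% of all genes, with a median ratio of 1.79 and sums of 160 and 286 CPM. Knstrn (3.86), Ccnb2 (3.04) and Ube2c (2.61) had the largest ratios. Cdk1, the mitotic kinase, was at 13.5 CPM uninjured and 34.3 CPM at 6 weeks, a ratio of 2.55 (2.33 to 2.8). In cells with fewer than 3 mitotic genes Cdk1 was at 7.92 and 24.4 CPM, a ratio of 3.08 (2.74 to 3.47). At 2000 UMIs Cdk1 was found in 5.57% of 6 weeks cells, while 1.28% held at least 3 mitotic genes. Mki67 went the other way, at 14.6 and 8.94 CPM, a ratio of 0.613 (0.543 to 0.69), as did Kif11 at 1.27 and 0.785 CPM, a ratio of 0.617 (0.404 to 0.935). Of the 31 mitotic genes, 23 had an interval above 1 and 2 had an interval below 1. The share of all genes with such intervals was not counted, so these numbers have no background. Over all genes tested the median ratio was 0.884. Aurkb, at 1.21 and 1.68 CPM, had an interval of 0.987 to 1.99 that spans 1. Top2a (0.921), Nusap1 (0.992), Bub1b (0.977), Bub1 (0.827) and Pbk (0.793) had ratios below 1 and intervals that span 1.

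None of the 13 S phase genes was at least 2-fold higher at 6 weeks and 5 were at least 2-fold lower, against 3.39% of all genes, namely Mcm2 (0.379), Tyms (0.423), Mcm4 (0.436), Mcm3 (0.439) and Rrm2 (0.49). Their sum was 152 and 88.1 CPM, a ratio of 0.581 (0.559 to 0.603). Scaled to the median gene, 2 of the 5 stayed at least 2-fold lower, against 1.89% of all genes. In that scaling 18 mitotic genes were at least 2-fold higher, against 9.52% of all genes. Pcna was lower as well, at 40.4 and 26.4 CPM. Mcm7 (1, 0.885 to 1.13), Tcf19 (1.11, 0.891 to 1.38) and Tk1 (0.94, 0.739 to 1.2) had intervals that span 1, and stood at 1.16, 1.28 and 1.09 when scaled to the median gene. Ccnd2 was at 657 and 468 CPM, a ratio of 0.713 (0.701 to 0.725), while Ccnd1 and Ccnd3 had ratios of 0.961 and 1.14. In the 65 mitotic only cells of the 6 weeks library, Ccnd2 was at 253 CPM against 472 CPM in cells with neither, and Cdkn1a was at 149 CPM against 77.5 CPM. In the 6 weeks cells with fewer than 3 mitotic genes, 10 of 28 mitotic genes tested were at least 2-fold higher, against 7.28% of all genes, and 3 were lower, against 3.49%, and the S phase sum was 140 and 81.5 CPM.

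In the PF isolation at 6 weeks, 2 of the 51 genes stood apart, Cenpa and Ccnd1, with no general increase of mitotic genes. Of 31 mitotic genes 17 had at least 20 UMIs, of which 2 were at least 2-fold higher, against 4.66% of all genes, and 1 lower, against 2.27%. Cenpa was at 5.28 and 28.3 CPM, a ratio of 5.36 (4.47 to 6.46), and the other was Aurka, on 8 and 22 UMIs, with an interval of 0.985 to 5.97. Cdkn3 was the lower gene, on 16 and 7 UMIs. The 31 mitotic genes summed to 31.4 and 52.2 CPM, a ratio of 1.66 (1.53 to 1.81). Cenpa supplied 54.1% of these UMIs at 6 weeks, and the 29 mitotic genes other than Stmn1 and Cenpa summed to 14.7 and 14.9 CPM, a ratio of 1.01 (0.882 to 1.16), where the genes left out were chosen after their values were seen. Fam64a had 8 UMIs uninjured and 0 at 6 weeks, and Bub1 had 1 and 0. In cells with fewer than 3 mitotic genes, 2 of 14 tested were higher, against 4.67% of all genes, and 1 was lower.

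Ccnd1 was at 18.2 CPM uninjured and 99.1 CPM at 6 weeks in the PF isolation, a ratio of 5.44 (4.94 to 6.01). Ccnd2 was at 326 and 356 CPM, a ratio of 1.09 (1.06 to 1.12). Ccnd3 was at 189 and 158 CPM, a ratio of 0.838 (0.806 to 0.872). Ccnd2 and Ccnd3 thus moved in opposite directions, and together were at 515 and 514 CPM. Cdkn1a was at 235 and 282 CPM, and Cdkn1b at 58.8 and 90.2 CPM, a ratio of 1.53 (1.44 to 1.63). No S phase gene passed 2-fold in either direction, with sums of 114 and 129 CPM. Mcm6 had the largest S phase ratio at 10.9 and 16.6 CPM, 1.52 (1.31 to 1.77), and Pcna was at 31.7 and 33.6 CPM.

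The PF libraries held FB-like cells (portal fibroblast markers) and VSMC-like cells (smooth muscle markers) in different proportions. There were 4019 and 1481 cells uninjured and 2621 and 2778 at 6 weeks, so the levels were also taken within each class. The make-up of each class differed as well. Among VSMC-like cells, a cluster with Pln among its top genes held 1346 cells uninjured and 1637 at 6 weeks. Another, with Higd1b among its top genes, held 135 and 1141. Levels were not taken within each cluster, so the part of this shift in the class ratios was not tested. In VSMC-like cells Cenpa was at 13.9 and 61.6 CPM, a ratio of 4.44 (3.45 to 5.82), and Ccnd1 at 44.6 and 207 CPM, a ratio of 4.64 (4.03 to 5.37). In FB-like cells Cenpa was at 2.89 and 4.97 CPM, a ratio of 1.72 (1.22 to 2.45), and Ccnd1 at 11.7 and 23.7 CPM. Of all genes, 6.89% were at least 2-fold higher and 1.02% lower in VSMC-like cells, and 3.53% higher and 1.69% lower in FB-like cells. No member with at least 20 UMIs in a class, over both libraries, was at least 2-fold lower there. Of the 31 mitotic genes, only 11 reached that minimum among FB-like cells and 5 among VSMC-like cells. Genes below it were not counted in either direction. At 2000 UMIs, Cenpa was found in 2.43% of uninjured and 10.3% of 6 weeks VSMC-like cells. Of the 258 such cells at 6 weeks, 4 (1.55%) held another mitotic gene, against 2.85% of VSMC-like cells without Cenpa. Ccnd1 was found in 7.82% and 23.7% of VSMC-like cells.

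**Figure D5:**
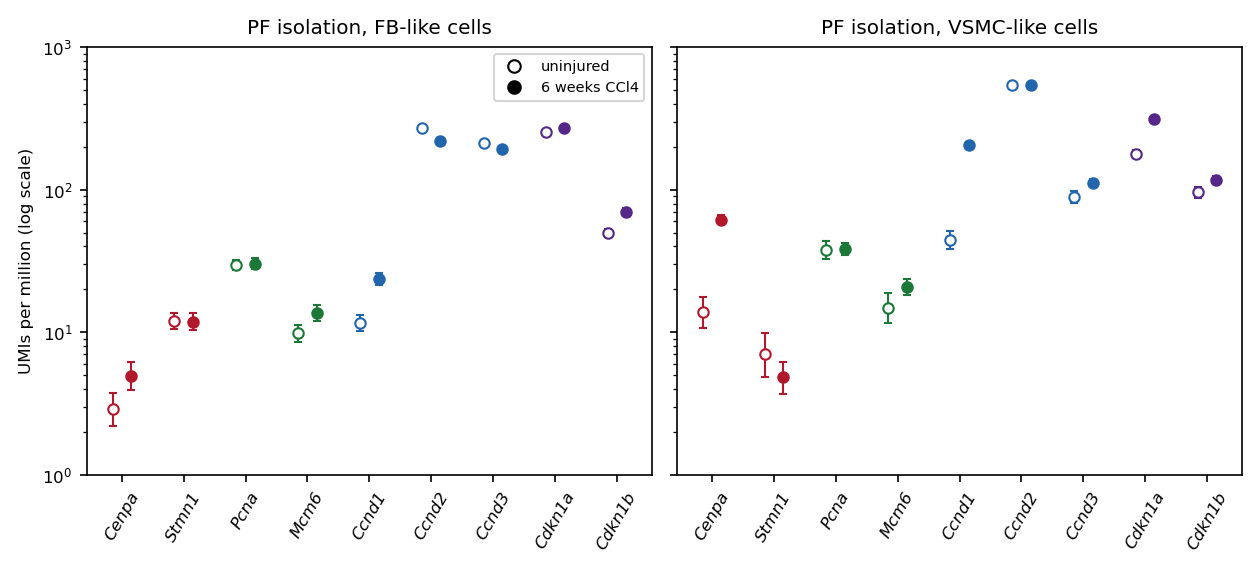
Level of 9 genes in FB-like cells (left) and VSMC-like cells (right) of the uninjured (open) and 6 weeks (filled) PF libraries in CPM on a log axis, with 95% counting intervals. Cenpa and Ccnd1 differ most between the libraries in VSMC-like cells, and Pcna is alike in both.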

How the data were processed

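Droplet-based single-cell libraries (10x Single Cell 3' version 2) were analysed. The UMI counts were deposited by the authors as raw counts per gene and cell, made with Cell Ranger 2.1.0 against mm10 (Ensembl 84). They hold the barcodes that Cell Ranger called as cells, before the study's own filters. The 6 plate-based samples whose labels give no group were not used here. Cells with at least 300 genes and at most 30% mitochondrial UMIs were kept. Counts were pooled per library and scaled to 1000000 UMIs, with exact Poisson intervals. Ratios have exact conditional binomial intervals, with 0 UMIs set to a floor of 3. Genes with at least 20 UMIs over both libraries count as tested, and ratios of at least 2 or at most 0.5 as called. With 1 library per condition no test was possible.

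Shares of cells have exact Clopper-Pearson intervals after each cell was thinned to 2000 UMIs. Cells were clustered over 5 libraries (2000 variable genes without the cell cycle genes, 10 principal components, 30 neighbours, Leiden resolution 0.8) with scikit-learn 1.9.0, igraph 0.11.9 and leidenalg 0.10.2, and named from markers. Doublets were called by simulated pairs at 0.8% per 1000 cells. Other tools were Python 3.11.15, NumPy 2.4.6, pandas 2.3.3, SciPy 1.17.1 and matplotlib 3.10.9. The ratio and the thinning were tested on simulated data.

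The genes to be named were the 5 most and 3 least abundant S phase and mitotic genes per comparison and all cyclins E and D. Both inhibitors, Mki67, Stmn1 and Pcna, genes against their group, and 10 genes most like the mitotic group were also set. Not all of these values are printed, among those left out being Lig1 at 72 h and Nusap1, Cdc20 and Knstrn in the PF isolation. Other genes were named after their values were seen. The members and lists were chosen with earlier results of these data known. Of 51 members, 13 overlap a protein-coding gene on the opposite strand and 0 on the same strand.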

Additional observations from a re-analysis of the deposited data

Results flagged for a closer look

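Of 37 genes with at least 20 UMIs in both comparisons, 9 moved opposite ways at 6 weeks in the HSC and PF isolations, each with an interval that excludes 1. That is 24.3%, beside 23.1% of all 12700 genes tested in both, so the members' share was near the background. The difference between the isolations was not tested, and each arm is 1 library. The ratio over the uninjured library was 0.528 in the HSC and 1.28 in the PF isolation for Rrm1, 0.379 and 1.48 for Mcm2, 0.436 and 1.2 for Mcm4, and 0.583 and 1.52 for Mcm6. It was 1.87 and 0.796 for Stmn1 and 2.55 and 0.365 for Cdkn3. It was 0.713 and 1.09 for Ccnd2, 1.14 and 0.838 for Ccnd3, and 0.885 and 1.53 for Cdkn1b, whose HSC ratio changes direction with the scaling. The isolations also differed in cell types. Within FB-like and VSMC-like cells of the PF isolation, Ccnd2 had ratios of 0.824 (0.79 to 0.859) and 0.998 (0.954 to 1.05). It was thus higher in neither class, unlike in the pooled PF library. Ccnd3 had ratios of 0.911 (0.871 to 0.954) and 1.26 (1.13 to 1.41). Rrm1, Mcm2, Mcm4, Mcm6 and Cdkn1b had ratios above 1 in both classes. Stmn1 had 0.987 and 0.687, and Cdkn3 had under 20 UMIs in each class.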

How the results depend on the processing

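Of the alternatives to the group counts, summed ratios and shares of cells, 136 values moved little and 40 moved, and the cause was not tested. Scaling to the median gene gave 1.74 for the S phase and 17.6 for the mitotic sum ratio at 72 h. At 6 weeks in the HSC isolation it gave 0.674 and 2.07 and turned the Cdkn1b ratio to 1.03. There 18 mitotic genes were at least 2-fold higher, against 9.52% of all genes in the same scaling. Weighting cells equally gave 1.25 and 15.4 at 72 h, and 1.83 for the mitotic sum in the PF isolation. Leaving out called doublets gave mitotic sum ratios of 14.6 at 72 h and 1.73 at 6 weeks in the HSC isolation, and leaving out shared barcodes gave 16.1 and 1.91. A ratio of at least 3 left 3 S phase genes at 72 h, and 2 mitotic genes in the HSC and 1 in the PF isolation at 6 weeks. In the PF isolation a minimum of 100 UMIs left 1 mitotic gene and no minimum gave 6. Of these Bub1, at 1 UMI uninjured and 0 at 6 weeks, passed only through the floor of 3 and was not higher. The share of all genes was not counted at a ratio of 3 or at these minimums, so those counts have no background.

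The share of cells with at least 3 mitotic genes was 23.1% at 4000 UMIs, 40.9% without thinning and 13.8% for at least 5 genes at 72 h. It was 1.74% at 4000 UMIs and 3.48% without thinning at 6 weeks, 0.818% without thinning in the uninjured HSC library, and 0 with another seed in the 6 weeks PF library. For S phase genes the values at 4000 UMIs, without thinning and for at least 5 genes were 1.67%, 5.91% and 0.148% in the uninjured HSC library, 5.69%, 17.7% and 0.643% at 72 h, 0.599%, 3.58% and 0.0183% at 6 weeks, 1.2%, 1.87% and 0 in the uninjured PF library, and 1.27%, 3.7% and 0 in the 6 weeks PF library, where another seed gave 0.209%. No paired analysis was possible because each condition was 1 library.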

Other observations

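Mesenchymal genes were set side by side in the 72 h cells with at least 3 mitotic genes and in those with none. Col1a1, a fibrillar collagen, was at 1908 and 2226 CPM, and Acta2, smooth muscle actin, at 836 and 871 CPM. Pdgfrb was at 175 and 240 CPM and Reln, which encodes reelin, at 398 and 628 CPM. Of the further cell cycle genes that went against their lists at 72 h, Slbp, which binds histone mRNA, was at 97.8 CPM uninjured and 48.5 CPM at 72 h, and Lbr, the lamin B receptor, at 36.4 and 14.2 CPM.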
